A study of Mus musculus with 9 samples.

Results

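The 32 genes described here cover the making of sterols and fatty acids and the export and uptake of lipids, and were chosen by symbol from a table of 23366 genes. All 32 were found in it. Of these, 27 belong to synthesis and its regulation and 5 to cholesterol efflux and lipid uptake (Abca1, Abcg1, Nr1h3, Mylip and Lpl). RNA was sequenced from bulk CD8+ T cells isolated from B16F10 tumours, a transplantable melanoma of C57BL/6 mice, in 5 WT libraries and 4 libraries from IL27ra KO mice, which lack the receptor chain that binds interleukin 27. Both groups carried the same tumour, and the labels give neither the age of the mice nor a further treatment, nor do they say whether mice were pooled or which part of Il27ra was disrupted. The genotype is that of the tumour-bearing mouse as the labels give it, so other host cells of the tumour lack the receptor as well as the T cells. Values are FPKM, fragment counts divided by transcript length and library size and then scaled between libraries by the authors, so that levels of different genes can be set side by side per length. Nothing in the labels ties each library to its own animal, so the p-values speak only of the spread among these 9 libraries, part of which may be technical.

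Cells make cholesterol from acetyl-CoA through mevalonate, isoprenoids and squalene, and make fatty acids from the same acetyl-CoA pool. The transcription factors of the SREBP family switch on both routes when membrane sterols are low and when T cells are activated to divide. Oxysterols, which build up when cholesterol is plentiful, activate the liver X receptors (LXRs), and these raise the exporters Abca1 and Abcg1 and the ubiquitin ligase Mylip, which limits the uptake of lipoproteins. Macrophages, which take up lipid from dying cells and lipoproteins, are known for high use of the efflux arm.

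Libraries were shallow, and markers of cells other than T cells were present in them. The spacing of low FPKM values implied about 1720000 to 4100000 fragments per library, with 1 fragment in 1 kb worth 0.244 to 0.58 FPKM. Il27ra had 25.7, 5.14, 15.2, 14.4 and 15.8 FPKM in WT replicates 1 to 5 and 4.09, 6.5, 5.62 and 7.80 FPKM in IL27ra KO replicates 1 to 4, so the library labelled WT replicate 2 lay inside the IL27ra KO range. The difference did not pass (log2 change -1.10; adjusted p = 0.0996 with limma, and p = 0.0635 in a two-sided exact permutation test that cannot go below 0.0159). CD8 T cell markers had a mean log2(FPKM + 1) of 6.24 to 6.92 in WT libraries and of 5.13, 5.61, 5.43 and 6.49 in IL27ra KO replicates 1 to 4. Of these 11 markers, 2 passed the threshold as lower, Cd3e and Cd8a (limma, adjusted p = 0.0317 and 0.0421). Their means were 222 and 88.4 FPKM in WT libraries and 102 and 41.3 FPKM in IL27ra KO. An unadjusted p under 0.05 was found for 8 of the 11, beside 15.1% of all genes tested. Changes above 0 numbered 0 of 11, beside 53.1% of all genes. Markers of macrophages and monocytes, 17 in the table with 16 of 16 tested past the threshold as higher, had summed levels of 42.4 to 299 FPKM in WT libraries and 445 to 1340 FPKM in IL27ra KO, with the lowest IL27ra KO sum in replicate 4. Csf1r, the receptor that defines these cells, was 0.22 to 4.01 FPKM in WT libraries and 10.99 to 49.0 FPKM in IL27ra KO libraries. Among all genes tested, 3.13% passed as higher and 1.11% as lower, for comparison with the marker counts given here. Melanocyte pigment markers, none of 7 past the threshold, had sums of 354 to 1162 FPKM in WT libraries and 541 to 1274 FPKM in IL27ra KO, and the lowest sum of each group was in WT replicate 2 and IL27ra KO replicate 4. Dendritic cell markers, 9 in the table with 4 of 5 tested past the threshold as higher, had sums of 16.02 to 317 FPKM in WT libraries and 296 to 1352 FPKM in IL27ra KO, most of it from the antigen presentation genes H2-Ab1 and Cd74, which macrophages also express. Itgax reached 13.8 FPKM and Cd209a 19.9 FPKM, whereas Flt3 and Clec9a were at most 0.43 and 0.18 FPKM in any library. Zbtb46 and Xcr1 had lower means in IL27ra KO (1.02 and 0.71 FPKM) than in WT libraries (1.38 and 0.95 FPKM). Zbtb46 did not pass, and Xcr1 was too low to be tested. Neutrophil, stromal and B cell markers had 1 tested gene each, none past the threshold, and sums of 0.45 to 4.00, 2.93 to 10.11 and 0.37 to 3.58 FPKM over all 9 libraries. Their highest single values were 4.00 FPKM of Csf3r, 9.57 FPKM of Pecam1 and 3.36 FPKM of Cd79b, while S100a8 and Col1a1 were at most 1.47 and 0.36 FPKM.

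Promoter letters are given here for genes of both arms. RefSeq promoters of GRCm38.p6 were at hand for 23 of the 32 genes, 30 promoters in all, and the 250 bases before each start site were searched on both strands. The sterol regulatory element, which SREBPs bind, was searched only as TCACNCCAC. These letters were in 1 of the 30 promoters, that of Hmgcs1, beside 1.05% of all 32851 promoters. Other forms of the element were not searched, so the result does not show that other genes lack one. CCAAT, the box bound by NF-Y, a usual partner of SREBPs, was in 17 of 30 (56.7%), beside 33.8% of all promoters and 35.5% of those of tested genes. GGGCGG, bound by Sp1, was in 20 of 30 (66.7%), beside 32.7% and 57.9%. The E-box CACGTG was in 4 of 30 (13.3%), those of Dhcr7, Hsd17b7, Insig1 and Abca1, beside 6.02% and 8.57%. The LXR element DR4 was searched only as a perfect direct repeat of AGGTCA spaced by any 4 bases. That form was in none of the 30 and in 0.0152% of all promoters. Imperfect copies of the repeat were not searched and are not in capitals below. The result therefore does not show that Abca1 or other genes lack an LXR element. Matches of different motifs did not overlap in these promoters. The last 150 bases before the start site are given for 2 synthesis genes and for 2 genes of the efflux arm, Abca1 and Mylip. The synthesis genes are Hmgcs1, the only gene found with the searched form of the sterol element, and Insig1, a carrier of the E-box. Matches to any of these motifs on either strand are in capitals (CCAAT reads ATTGG on the other strand, and GGGCGG reads CCGCCC).
Hmgcs1, chr13:119690201-119690350, plus strand: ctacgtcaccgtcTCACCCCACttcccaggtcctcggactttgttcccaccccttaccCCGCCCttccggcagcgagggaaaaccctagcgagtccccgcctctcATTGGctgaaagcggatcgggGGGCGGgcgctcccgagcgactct
Insig1, chr5:28071262-28071411, plus strand: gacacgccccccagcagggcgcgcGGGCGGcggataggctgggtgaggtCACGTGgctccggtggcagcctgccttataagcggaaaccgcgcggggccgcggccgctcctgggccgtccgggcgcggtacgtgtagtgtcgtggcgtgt
Abca1, chr4:53159896-53160045, minus strand: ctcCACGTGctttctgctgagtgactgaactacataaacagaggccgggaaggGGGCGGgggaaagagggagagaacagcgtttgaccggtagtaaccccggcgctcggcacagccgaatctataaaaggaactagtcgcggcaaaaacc
Mylip, chr13:45389592-45389741, plus strand: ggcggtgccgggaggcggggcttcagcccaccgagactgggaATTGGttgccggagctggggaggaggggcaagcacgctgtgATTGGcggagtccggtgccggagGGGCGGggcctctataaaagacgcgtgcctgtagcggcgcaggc
The sterol element of Hmgcs1 begins 137 bases before the start site and reads TCACCCCAC, and an inverted CCAAT box begins 45 bases before that site. The Abca1 stretch holds an E-box at 147 bases and an Sp1 match at 97 bases, and the Mylip stretch holds inverted CCAAT boxes at 108 and 67 bases. A match describes the letters of these windows and is no measure of binding.

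Genes of cholesterol efflux and lipid uptake were higher in IL27ra KO libraries, whereas none of the synthesis genes passed the test, and the difference between the arms was itself not tested. Of the 5 efflux and uptake genes, Abca1, Abcg1 and Lpl rose in IL27ra KO libraries, by 4.08, 2.16 and 7.16 times in mean FPKM. Mylip was 2.03 times as high and did not pass, and Nr1h3 was too low to be tested. Of the 27 genes of synthesis and its regulation, 0 passed in either direction (limma on log2(FPKM + 1), adjusted p under 0.05 over 10374 genes), and 5 had an unadjusted p under 0.05. Among all genes tested 3.13% passed as higher, 1.11% passed as lower and 15.1% had an unadjusted p under 0.05. The median log2 change was 0.30 over the synthesis genes and 1.20 over the 4 tested efflux and uptake genes, beside 0.02 over all genes. The 27 intervals of the synthesis genes ran from a lowest bound of -1.08, for Stard4, to a highest bound of 1.38, for Sqle, so changes of up to about that size are not excluded for single genes. Lpl passed the filter of a mean of 1 FPKM through its IL27ra KO libraries, and its WT mean was below 1. In bulk RNA, fewer cells of a type and less RNA per cell cannot be told apart.

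**Figure D1:**
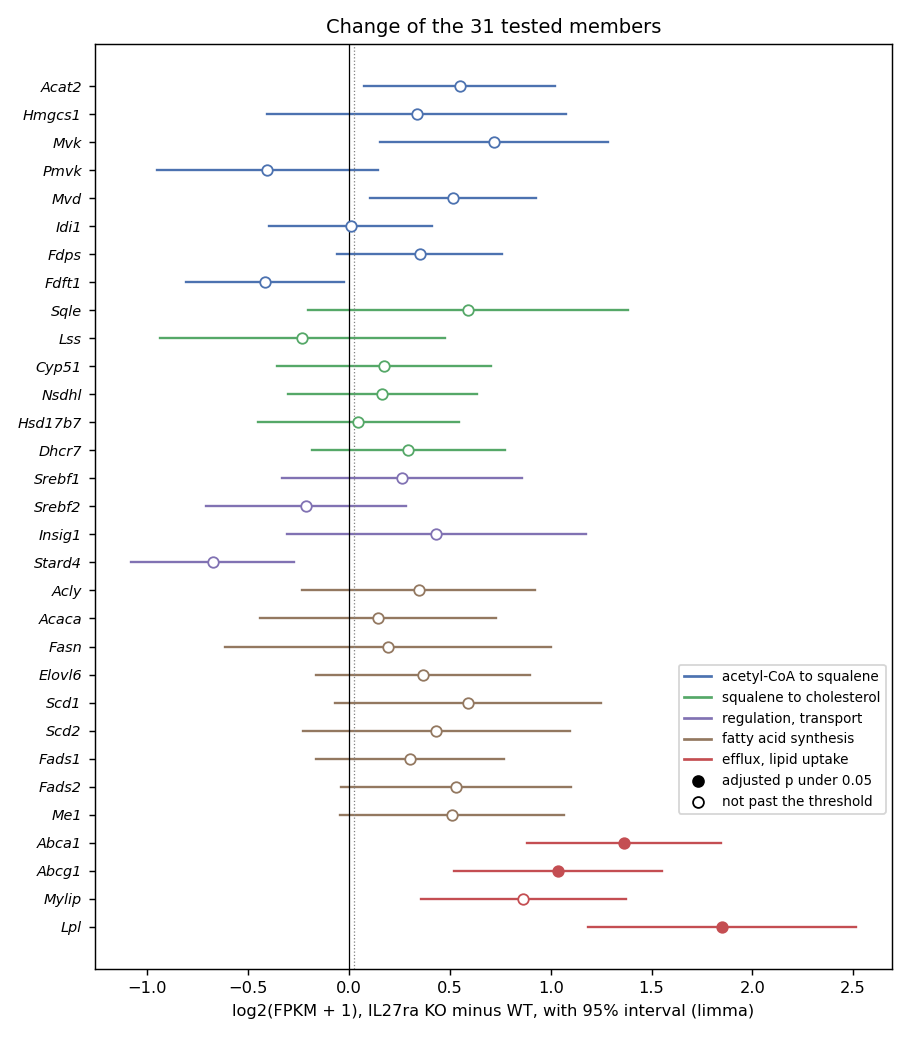
Difference in log2(FPKM + 1) between IL27ra KO (n = 4) and WT (n = 5) for the 31 tested genes, with 95% intervals from limma; filled points are past an adjusted p of 0.05 and the dotted line is the median of all genes. Abca1, Abcg1 and Lpl are filled, and all 27 synthesis genes are open.

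Abca1, the pump that loads cholesterol and phospholipid onto lipid-poor apolipoprotein, had 1.01, 0.82, 1.61, 1.20 and 0.38 FPKM in WT replicates 1 to 5 and 4.34, 4.51, 4.52 and 3.00 FPKM in IL27ra KO replicates 1 to 4. Every IL27ra KO library was above the highest WT library, as for 4.26% of all genes tested. The log2 change was 1.36 (SE 0.22, limma, adjusted p = 0.0033), on a scale that understates changes of low genes, and by the same spacing these levels stand for about 16 to 36 fragments per WT library and 107 to 171 per IL27ra KO library.

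Abcg1, which passes cholesterol on to HDL particles, had 8.24, 3.25, 4.81, 5.35 and 3.00 FPKM in WT libraries and 12.1, 9.56, 10.95 and 9.94 FPKM in IL27ra KO libraries. The groups did not overlap, with WT replicate 1 nearest to the IL27ra KO range. The log2 change was 1.04 (SE 0.24, limma, adjusted p = 0.0256). That call did not survive leaving out WT replicate 3 or 5, nor leaving out any of IL27ra KO replicates 1 to 3 (highest adjusted p = 0.101), nor did it with the library total as the scale (adjusted p = 0.0623) or with no filter (adjusted p = 0.0588).

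Lpl, the lipase that frees fatty acids from lipoproteins, had 0.15, 1.20, 0.37, 0.53 and 1.54 FPKM in WT libraries and 4.81, 7.43, 2.42 and 7.05 FPKM in IL27ra KO libraries. The lowest IL27ra KO library, replicate 3, was above the highest WT library. Its log2 change was 1.85 (SE 0.31, limma, adjusted p = 0.0038), from about 2 to 26 fragments per WT library and 25 to 105 per IL27ra KO library.

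Mylip, the ubiquitin ligase that limits lipoprotein uptake, had 4.07, 1.92, 4.02, 2.72 and 1.55 FPKM in WT libraries and 6.76, 5.41, 4.75 and 6.28 FPKM in IL27ra KO libraries. The groups did not overlap. The log2 change of 0.86 (SE 0.24) missed the threshold (limma, adjusted p = 0.0591), and it passed without WT replicate 1 (adjusted p = 0.0461) or WT replicate 3 (adjusted p = 0.0471). Nr1h3, which encodes LXR alpha, had 0.48, 0.24, 0.32, 0.71 and 0.54 FPKM in WT libraries and 2.30, 0.65, 1.53 and 0.64 FPKM in IL27ra KO libraries. IL27ra KO replicates 2 and 4 lay inside the WT range, and these values stand for about 1 to 4 fragments per WT library and 4 to 17 per IL27ra KO library. With no filter on low values its log2 change was 0.59 and did not pass (limma, adjusted p = 0.305).

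**Figure D2:**
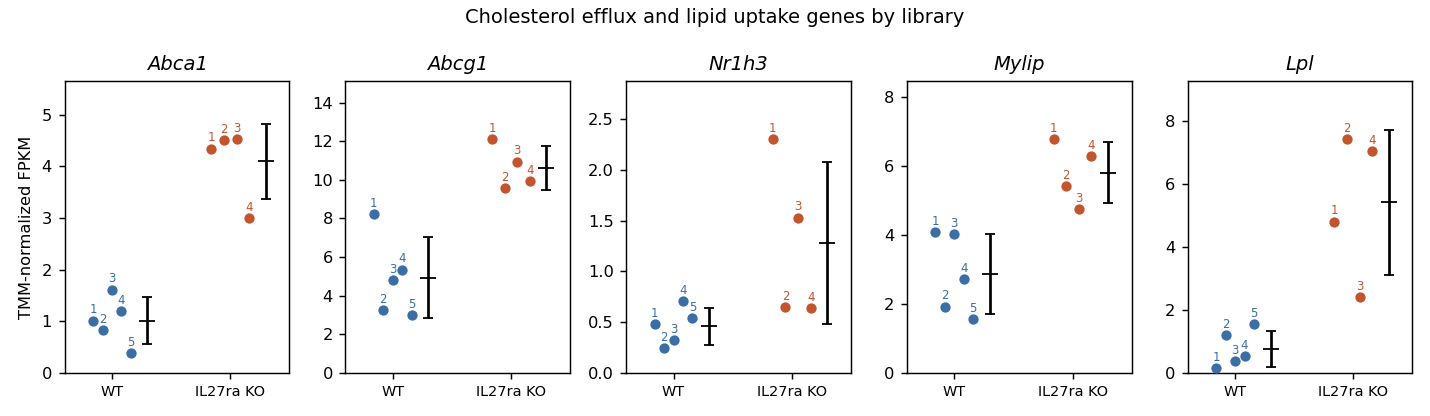
FPKM of the 5 efflux and uptake genes in each library, numbered by replicate, with the group mean and SD in black (WT n = 5, IL27ra KO n = 4). Abca1, Abcg1, Mylip and Lpl do not overlap between groups, and Nr1h3 does.

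Macrophage markers and some dendritic cell markers were higher in IL27ra KO libraries, as the efflux arm was. Within each group their levels did not run in parallel with it throughout. The part of these cells in the efflux arm was not tested. The IL27ra KO library with the fewest macrophage transcripts, replicate 4, had a macrophage sum of 445 FPKM, against 1062 to 1340 FPKM in the other 3, and a mean log2 level of CD8 T cell markers of 6.49, inside the WT range. In that library Abca1 and Nr1h3 were at their lowest for the group, 3.00 and 0.64 FPKM, and Abcg1, at 9.94 FPKM, was neither lowest nor highest. Lpl was there at 7.05 FPKM and Mylip at 6.28 FPKM, the second highest value of each gene. The mean log2(FPKM + 1) of the 5 genes was 1.16 to 1.47 in WT libraries and 2.67, 2.47, 2.34 and 2.41 in IL27ra KO replicates 1 to 4. WT replicates 2 and 5, which had the most macrophage RNA of their group with sums of 299 and 172 FPKM, had the lowest means of the 5 genes, 1.19 and 1.16. Single genes differed there. Abca1, Abcg1 and Mylip had their lowest WT values in those libraries, whereas Lpl had its highest, 1.20 and 1.54 FPKM. Nr1h3 was at 0.24 FPKM, its lowest, in WT replicate 2 and at 0.54 FPKM in WT replicate 5.

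**Figure D3:**
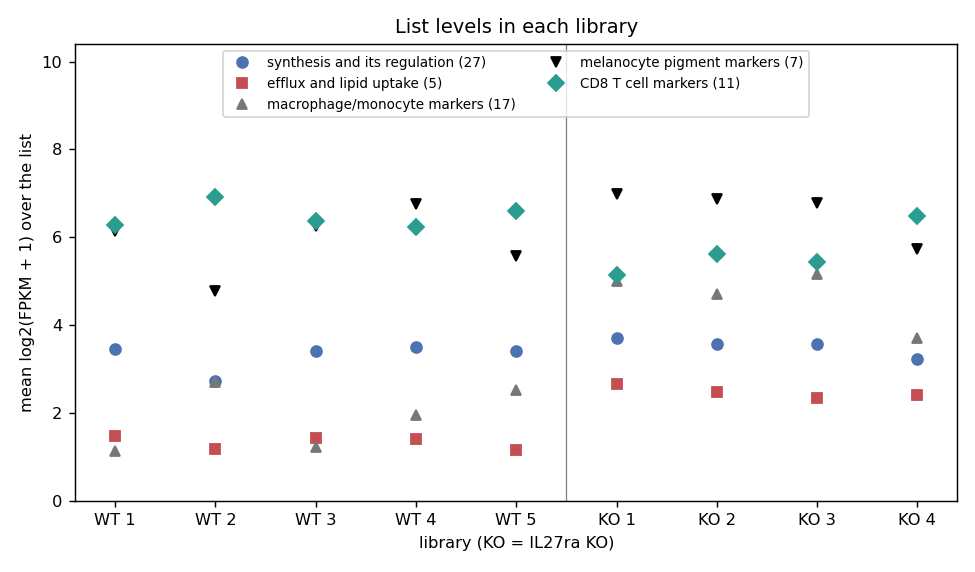
Mean log2(FPKM + 1) in each of the 9 libraries for the synthesis genes, the efflux and uptake genes, and the markers of macrophages, melanocytes and CD8 T cells; numbers in brackets are genes in the table. Efflux and uptake genes lie at 1.16 to 1.47 in WT libraries and 2.34 to 2.67 in IL27ra KO, and the synthesis genes are lowest in WT replicate 2.

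The first 8 enzymes, from acetyl-CoA to squalene, had a median log2 change of 0.34, with none past the threshold (limma) and 4 at an unadjusted p under 0.05. Fdps, which builds farnesyl diphosphate, was the most abundant, with 51.1 ± 6.87 FPKM in WT libraries (SD, n = 5) and 65.4 ± 8.65 FPKM in IL27ra KO libraries (SD, n = 4). Mvk, which adds the first phosphate to mevalonate, had 0.70, 2.65, 1.72, 2.83 and 3.51 FPKM in WT libraries and 3.90, 3.70, 4.27 and 4.68 FPKM in IL27ra KO libraries. Its groups did not overlap, and the log2 change of 0.72 (SE 0.26) did not pass (limma, adjusted p = 0.183). Mvd, which makes isopentenyl diphosphate, had 6.39, 6.75, 4.54, 5.08 and 6.61 FPKM in WT libraries and 7.94, 9.31, 7.15 and 10.95 FPKM in IL27ra KO, again with no overlap (log2 change 0.51, limma, adjusted p = 0.191). Acat2, the thiolase that joins acetyl-CoA units in the cytosol, had 5.39 to 10.2 FPKM in WT libraries and 8.94 to 15.8 FPKM in IL27ra KO libraries (log2 change 0.55, limma, adjusted p = 0.234). The other 3 steps before squalene synthase had changes nearer to 0 or below it. Hmgcs1, whose promoter is shown above, had 20.9, 4.69, 12.7, 14.4 and 21.9 FPKM in WT libraries and 21.4, 15.2, 18.8 and 13.9 FPKM in IL27ra KO libraries. All of its IL27ra KO values lay inside the WT range, and its log2 change was 0.33, or 0.0016 without WT replicate 2. Idi1, the isomerase of isopentenyl diphosphate, had 7.51 to 12.3 FPKM in WT libraries and 10.44 to 11.8 FPKM in IL27ra KO, with a log2 change of 0.0072. Pmvk, which adds the second phosphate to mevalonate, had 7.74 ± 2.57 FPKM in WT libraries and 5.56 ± 1.68 FPKM in IL27ra KO libraries (log2 change -0.41, limma, adjusted p = 0.517).

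Fdft1, squalene synthase, which commits isoprenoids to sterols, ran opposite to Mvk and Mvd. It had 11.99, 9.75, 13.9, 10.2 and 13.3 FPKM in WT libraries and 8.91, 8.80, 7.06 and 9.51 FPKM in IL27ra KO libraries. Every IL27ra KO library was below every WT library, as for 2.47% of all genes in this direction. The log2 change of -0.42 (SE 0.18) did not pass (limma, adjusted p = 0.288) and was 0.32 on scaling to CD8 T cell markers.

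The 6 enzymes from squalene to cholesterol overlapped between the groups throughout, with a median log2 change of 0.17 and a lowest adjusted p of 0.517 (limma), none at an unadjusted p under 0.05. Sqle, the epoxidase that is a rate-limiting step of the late route, had 18.6, 3.69, 9.97, 13.2 and 12 FPKM in WT libraries and 24.0, 16.4, 18.5 and 8.90 FPKM in IL27ra KO libraries. WT replicate 2 was the lowest library and IL27ra KO replicate 4 the next lowest. Lss, which closes the sterol rings, had 10.42 ± 4.72 FPKM in WT libraries and 8.17 ± 2.51 FPKM in IL27ra KO, and Cyp51, which demethylates lanosterol, had 11.8 ± 3.01 and 13.5 ± 3.67 FPKM. Nsdhl and Hsd17b7, which act together in removing the methyl groups next to the sterol hydroxyl, had 6.56 ± 0.68 and 1.91 ± 0.26 FPKM in WT libraries and 7.75 ± 2.53 and 2.12 ± 1.13 FPKM in IL27ra KO libraries. Dhcr7, the last enzyme before cholesterol, had 7.99 ± 1.54 FPKM in WT libraries and 10.2 ± 2.84 FPKM in IL27ra KO libraries.

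Stard4, a carrier that moves cholesterol between membranes, came nearest to the threshold among the 27. It had 9.38, 8.26, 10.5, 7.85 and 10.97 FPKM in WT libraries and 6.76, 4.12, 5.27 and 5.98 FPKM in IL27ra KO libraries. The groups did not overlap, with IL27ra KO below WT. The log2 change of -0.68 (SE 0.19) missed the threshold (limma, adjusted p = 0.0641) and passed without WT replicate 2 (-0.72, adjusted p = 0.0427), whereas on scaling to CD8 T cell markers it was 0.0405. The other 3 genes of regulation overlapped. Insig1, which holds the SREBPs in the endoplasmic reticulum and is itself a target of them, had 34.2, 9.81, 25.2, 38.5 and 30.96 FPKM in WT libraries and 46.6, 40.1, 33.1 and 22.8 FPKM in IL27ra KO libraries (log2 change 0.43, limma, adjusted p = 0.629). Srebf2, the SREBP gene tied mainly to sterols, had 16.7 ± 4.80 and 13.8 ± 1.41 FPKM in WT libraries and IL27ra KO, and Srebf1, tied mainly to fatty acids, had 6.45 ± 2.53 and 7.52 ± 1.45 FPKM.

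All 9 genes of fatty acid synthesis had log2 changes above 0, from 0.14 to 0.59, as did 53.1% of all genes tested. None of the 9 passed (limma, lowest adjusted p = 0.375) or reached an unadjusted p of 0.05. Without WT replicate 2, the changes of Acaca and Fasn were below 0, at -0.0707 and -0.0999. Scd2 and Acly were the most abundant. Scd2, a desaturase that makes monounsaturated fatty acids, had 55.7, 18.7, 40.0, 41.9 and 32.8 FPKM in WT libraries and 68.2, 46.6, 58.3 and 29.7 FPKM in IL27ra KO libraries. Acly, which releases acetyl-CoA from citrate in the cytosol, had 36.5 ± 11.5 FPKM in WT libraries and 44.5 ± 5.98 FPKM in IL27ra KO libraries. Acaca, which makes malonyl-CoA, had 3.95 ± 1.89 and 4.13 ± 0.30 FPKM. Fasn, which builds palmitate, had 9.15, 4.52, 19.2, 24.2 and 9.25 FPKM in WT libraries and 16.4, 14.6, 14.4 and 8.57 FPKM in IL27ra KO libraries. Its WT libraries spread over more than the whole IL27ra KO range. Elovl6, which lengthens palmitate, had 3.37 ± 1.36 and 4.42 ± 0.73 FPKM, and Scd1, a close relative of Scd2 with which it can trade reads, had 4.63 ± 1.90 and 7.13 ± 2.16 FPKM. The desaturases of polyunsaturated fatty acids, Fads1 and Fads2, had 6.61 ± 1.52 and 7.37 ± 2.86 FPKM in WT libraries and 8.35 ± 1.74 and 10.9 ± 3.03 FPKM in IL27ra KO libraries. Me1, malic enzyme, which supplies NADPH, had 3.04 ± 0.96 and 4.83 ± 1.88 FPKM (log2 change 0.51, limma, adjusted p = 0.386).

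**Figure D4:**
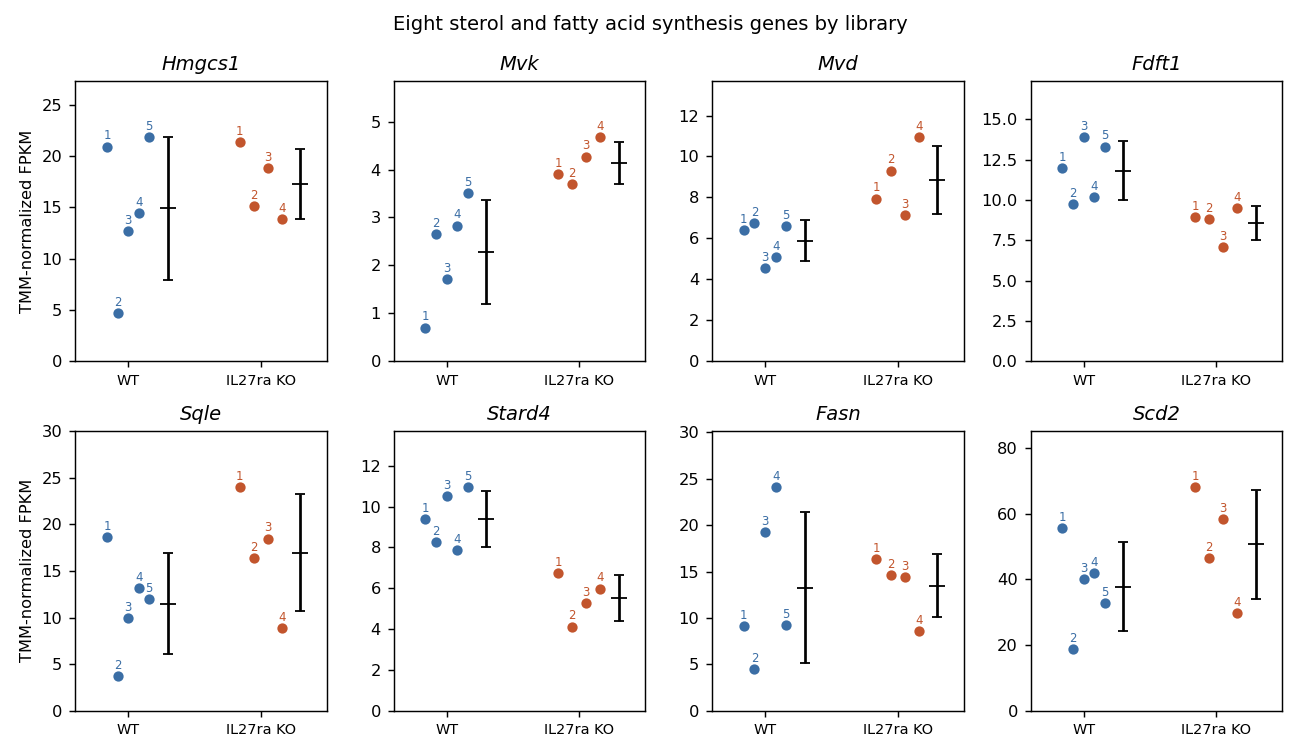
FPKM of 8 synthesis genes in each library, numbered by replicate, with the group mean and SD in black (WT n = 5, IL27ra KO n = 4). Mvk and Mvd lie higher and Fdft1 and Stard4 lower in IL27ra KO with no overlap, and WT replicate 2 is the lowest of the 9 libraries for Hmgcs1, Sqle, Fasn and Scd2.

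For the synthesis genes, a library of each group stood below the rest of its group. WT replicate 2 was the lowest of the 9 libraries for 19 of the 27 genes, whereas it was lowest for 28.5% of all genes tested. IL27ra KO replicate 4 was the lowest of its group for 19 of the 27, beside 34.9% of all genes tested. The mean log2(FPKM + 1) of the 27 genes was 3.45, 2.73, 3.42, 3.50 and 3.41 in WT replicates 1 to 5 and 3.71, 3.57, 3.57 and 3.22 in IL27ra KO replicates 1 to 4. The pigment markers had means of 6.15, 4.77, 6.26, 6.75 and 5.58 in WT libraries and 6.98, 6.87, 6.77 and 5.73 in IL27ra KO, lowest in the same library of each group. CD8 T cell markers ran the other way, with means of 6.27, 6.92, 6.37, 6.24 and 6.59 in WT libraries and 5.13, 5.61, 5.43 and 6.49 in IL27ra KO, highest in those same libraries. Markers of dividing cells had 4.33 to 4.71 in WT libraries and 4.28 to 4.62 in IL27ra KO libraries. The part of pigment cell and T cell RNA in the synthesis levels was not tested. Leaving out WT replicate 2 moved the median change of the synthesis genes from 0.30 to 0.11, and 1 gene, Stard4, then passed as lower.

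The size of the synthesis changes, and the sign of some single genes, depended on the scale and on single libraries. The synthesis median was above 0, and below the efflux median, in the main fit and in each of the 20 others. These fits reuse the same 9 libraries, and the genes were chosen with earlier results of these data known. Their agreement is therefore no independent support. The efflux median rests on few genes, and on 1 gene with the filter at 5 FPKM. Changes were above 0 for 22 of the 27 genes, beside 53.1% of all genes. That number was 19 without WT replicate 2, 20 with quantile normalization and 27 on scaling to CD8 T cell markers. The shares of all genes above 0 in these fits were 52.6%, 46.2% and 96.1%. Scaling to CD8 T cell markers moved the median of all genes to 0.70. On that scale 10 of the 27 synthesis genes passed as higher (Acat2, Mvk, Mvd, Fdps, Sqle, Acly, Scd1, Scd2, Fads2 and Me1). Calls as higher there numbered 2146 over all 10374 genes tested. The synthesis median relative to all genes was 0.33, against 0.28 as deposited. Relative to all genes the efflux and uptake median was 1.12 on that scale and 1.18 as deposited, and 4 of its 4 tested genes passed there. Within each library, the mean log2 level of synthesis exceeded that of efflux and uptake by 1.55 to 2.25 in WT libraries and by 0.81 to 1.24 in IL27ra KO libraries.

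Other genes of the same pathways were read from lists drawn up by function. Of 16 other tested genes of sterol synthesis and SREBP control, 0 passed (limma; 1 at an unadjusted p under 0.05), with a median log2 change of -0.02. Nfyb, a subunit of the CCAAT-binding NF-Y, had 8.66 ± 1.47 FPKM in WT libraries and 5.39 ± 0.47 FPKM in IL27ra KO libraries (limma, adjusted p = 0.0964). Acat1, the mitochondrial thiolase, had 13.0 ± 1.55 FPKM in WT libraries and 15.5 ± 1.71 FPKM in IL27ra KO libraries (adjusted p = 0.585). Of 14 tested genes of fatty acid synthesis, 1 rose, beside 3.13% of all genes tested that passed as higher. Acss2, which makes acetyl-CoA from acetate, had 4.38, 1.87, 4.23, 2.41 and 3.77 FPKM in WT libraries and 6.40, 6.20, 6.25 and 9.96 FPKM in IL27ra KO libraries (log2 change 0.94, SE 0.23, limma, adjusted p = 0.0377). The groups did not overlap, the highest value was in IL27ra KO replicate 4, and the call was lost in 12 of 20 other fits (highest adjusted p = 0.1004). Acsl5, which activates long-chain fatty acids, had 21.8 ± 3.80 FPKM in WT libraries and 14.6 ± 1.36 FPKM in IL27ra KO and did not pass (adjusted p = 0.156), nor did Elovl7 and Tecr, of fatty acid elongation (adjusted p = 0.437 and 0.555).

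Of 18 other tested genes of efflux, storage and uptake, 6 rose and 0 fell, with a median log2 change of 0.69. Among all genes tested, 3.13% passed as higher and 1.11% as lower. Cd36, Msr1 and Lrp1, a fatty acid transporter and receptors for modified lipoprotein and for apolipoprotein E remnants, had WT means of 0.92, 0.40 and 0.84 FPKM and passed the filter through their IL27ra KO libraries, whose means were 7.47, 7.35 and 8.82 FPKM. Cd36 had 4.65, 5.94, 6.25 and 13.0 FPKM in IL27ra KO replicates 1 to 4, highest in the replicate with the fewest macrophage transcripts, whereas Msr1 had 4.69, 9.72, 11.1 and 3.87 FPKM and was lowest there. Pltp, which transfers phospholipids between lipoproteins, had 1.60, 7.36, 0.63, 4.41 and 6.83 FPKM in WT libraries and 81.1, 55.2, 36.2 and 10.1 FPKM in IL27ra KO libraries (log2 change 3.11, SE 0.57, limma, adjusted p = 0.0062). Apoe, the apolipoprotein that accepts cellular cholesterol, had 77.3, 145, 47.9, 73.2 and 87.6 FPKM in WT libraries and 656, 459, 353 and 109 FPKM in IL27ra KO libraries. Its replicate 4 lay inside the WT range (log2 change 2.01, adjusted p = 0.0195), and the call was lost in 5 of 20 other fits, with the highest adjusted p, 0.0797, without IL27ra KO replicate 1. Lipa, the lysosomal lipase that frees cholesterol from its esters, rose from 8.58 ± 0.73 to 14.8 ± 3.12 FPKM (log2 change 0.71, adjusted p = 0.0438), a call lost in 10 of 20 other fits (highest adjusted p = 0.217, with the replicate block). Nr1h2, which encodes LXR beta, had 10.3 ± 0.34 FPKM in WT libraries and 11.98 ± 2.13 FPKM in IL27ra KO libraries (adjusted p = 0.703), and per length exceeded Nr1h3 in all 9 libraries.

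**Figure D5:**
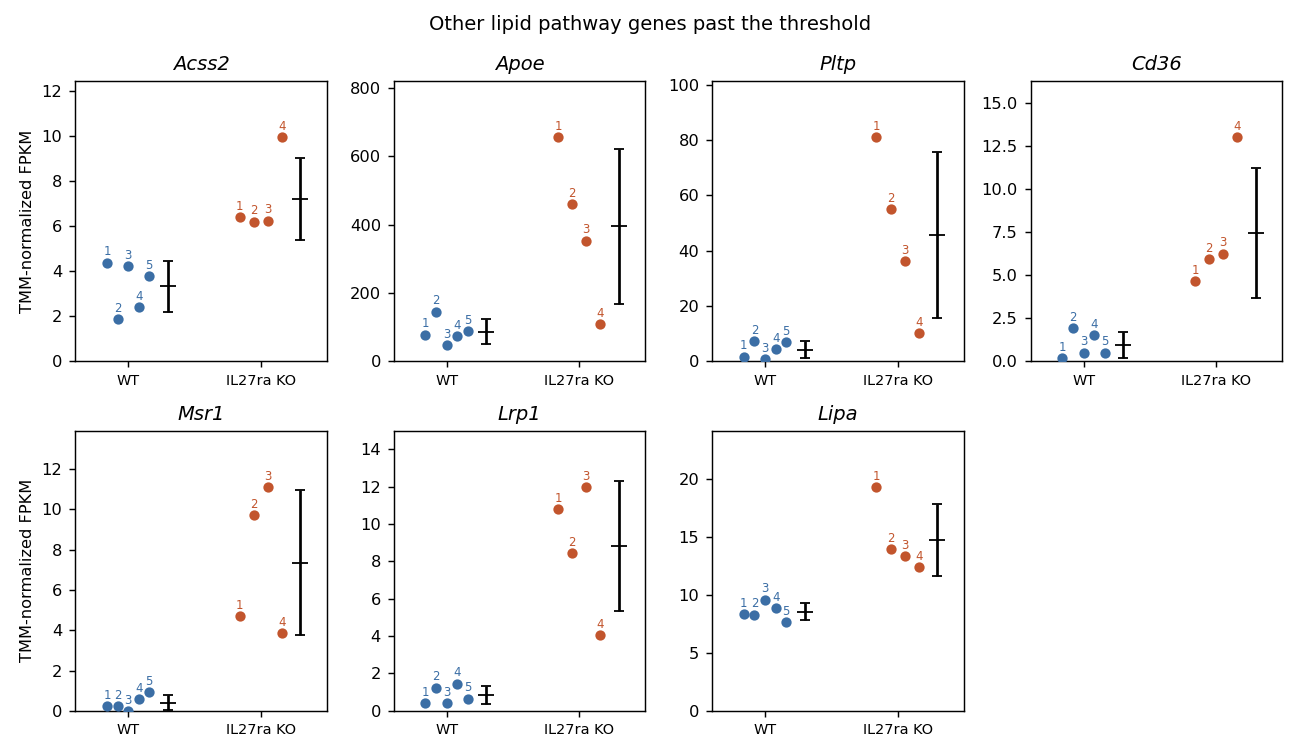
FPKM of the 7 other lipid pathway genes past the threshold in each library, numbered by replicate, with the group mean and SD in black (WT n = 5, IL27ra KO n = 4). Apoe and Pltp are lowest among IL27ra KO libraries in replicate 4, and Cd36 and Acss2 are highest there.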

How the data were processed

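Gene expression was measured by RNA sequencing of bulk CD8+ T cells from B16F10 tumours in 5 WT and 4 IL27ra KO libraries, made with an adaptation of SMART-Seq 2 per the labels' protocols. The authors deposited FPKM per gene, made with RSEM and scaled between libraries by TMM, per the labels. The submitters' processing notes name TopHat, RSEM, DESeq and mm9, without versions or roles. RSEM divides reads among similar genes, PCR copies are counted, and the strand setting is not given in the sources used here. The table has 0 columns of other samples. Depth is an estimate from FPKM steps in genes with 1 transcript in GENCODE M21 (61.2% to 66.5% of low values were whole to within 0.1, where an even spread would give 20%).

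From the FPKM, log2(FPKM + 1) was taken for the 10374 genes whose mean reached 1 FPKM and compared with limma 3.58.1 in R 4.3.3 (trend; Benjamini-Hochberg over all genes; threshold 0.05), as IL27ra KO minus WT. The fit was tested on simulated data. Members and lists were chosen with earlier results of these data known. Named genes are the 32 members, Il27ra, and from 3 other pathway lists those past the threshold or, up to 4 a list, of smallest p; Nr1h2 was added after its values were seen, and a few genes picked by this rule are left out here. Tried besides were pseudocounts 0.1 and 5, dropping the filter or raising it to 5 FPKM, quantile normalization, the total without Rn45s, scaling to 11 CD8 T cell markers, library weights, a robust fit, the replicate block and each library left out; leaving out WT replicate 2 with IL27ra KO replicate 4 was added after the data were seen. RefSeq sequences of GRCm38.p6 were used by symbol; the deposited values carry no coordinates.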

Additional observations from a re-analysis of the deposited data

Results flagged for a closer look

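Among the 32 genes and Il27ra, 66 groups of libraries were checked for a library that stands apart from the rest of its group on the log2(FPKM + 1) scale, and 6 values were found; chance gives about 1 in 20 groups. In WT, replicate 2 was low for Idi1 (7.51 FPKM), Acly (16.9 FPKM), Scd1 (1.40 FPKM) and Fads1 (4.08 FPKM). In IL27ra KO, replicate 4 was low for Fads1 (5.74 FPKM) and Abca1 (3.00 FPKM). These are the libraries with the lowest pigment marker sums of their groups (354 and 541 FPKM) and the highest CD8 T cell marker means of theirs (6.92 and 6.49 on the log2 scale).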

How the results depend on the processing

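Of 20 other fits, Abca1 and Lpl passed in each of the 19 that tested them, Abcg1 in 12 of 20 and Mylip in 4 of 19. The number of synthesis genes past the threshold was 0 in most fits, 1 (Stard4) with quantile normalization, library weights, and without WT replicate 2 alone or with IL27ra KO replicate 4, and 10 on scaling to CD8 T cell markers. Among efflux and uptake genes, 1 passed with the filter at 5 FPKM, which leaves 1 to test. The synthesis median was 1.02 on scaling to CD8 T cell markers and 0.11 to 0.43 with a library left out. The efflux and uptake median was 1.60 and 0.64 with pseudocounts of 0.1 and 5, 1.03 with no filter and with the filter at 5 FPKM, 1.82 on scaling to CD8 T cell markers, and 1.07 to 1.29 with a library left out. Over all genes, higher and lower calls numbered 325 and 115, and went to 155 and 64 with the filter at 5 FPKM, 2146 and 55 on scaling to CD8 T cell markers, 632 and 342 with library weights, and 555 and 313 without WT replicate 2 and IL27ra KO replicate 4; leaving out a library gave 169 to 448 higher and 57 to 184 lower. No filter gave 240 and 83, pseudocount 5 328 and 101, and quantile normalization 301 and 156. The replicate block gave 217 higher and 56 lower calls and ended the call of Abcg1 (adjusted p = 0.0749); same-numbered libraries share only a number (correlations of their deviations -0.147 to 0.0027), and none correlated best with its own number. Il27ra passed with library weights (-1.42, adjusted p = 0.0012), without WT replicate 2 (-1.42, adjusted p = 0.0035; leaving out single libraries gave -1.42 to -0.88) and without WT replicate 2 and IL27ra KO replicate 4 (-1.53). Signs of uncalled genes turned with quantile normalization (Idi1 -0.0416, Hsd17b7 -0.0661); scaling to CD8 T cell markers (Pmvk 0.30, Fdft1 0.32, Lss 0.49, Srebf2 0.55, Stard4 0.0405); library weights (Idi1 -0.0738); without WT replicate 2 (Idi1 -0.12, Acaca -0.0707, Fasn -0.0999); without WT replicate 3 (Hsd17b7 -0.00734); without IL27ra KO replicate 1 (Idi1 -0.0148, Hsd17b7 -0.18); without IL27ra KO replicate 3 (Idi1 -0.0205); without WT replicate 2 and IL27ra KO replicate 4 (Idi1 -0.0911, Acaca -0.0513). With libraries left out the log2 changes ran from -0.117 to 0.0447 for Idi1, -0.182 to 0.172 for Hsd17b7, -0.0707 to 0.299 for Acaca, -0.0999 to 0.447 for Fasn. The cause of these shifts was not tested. Depth limits Nr1h3 and Lpl most, with as few as 1 and 2 fragments per WT library.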
